A study of Mus musculus with 4 samples.

Results

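The 35 genes described here encode the contractile apparatus of smooth muscle and the proteins that control it. They were taken as a fixed list of symbols and were all found among the 32286 genes of the count tables. The list holds 3 actins (Acta2, Actg2, Actc1), 7 other thin-filament genes (Tagln, Cnn1, Tpm1, Tpm2, Cald1, Lmod1, Smtn), 4 genes of myosin, its light chains and their kinase (Myh11, Myl9, Myl6, Mylk), 9 genes of filament anchorage (Des, Synpo2, Actn1, Flna, Vcl, Csrp1, Pdlim3, Pdlim7, Dmd), 3 genes grouped as phosphatase regulators (Ppp1r12b, Ppp1r14a, Hspb6), 6 genes of channels and calcium stores (Kcnmb1, Kcnma1, Cacna1c, Ryr2, Itpr1, Pln), the transcription factors Myocd and Srf, and Sncg. Lung cells of 2 WT and 2 Tubb3-/- mice were profiled by single-cell RNA-seq. Every mouse had received 0.8 U/kg of bleomycin into the trachea 14 days earlier. Bleomycin injures the lung and leads to fibrosis, and all libraries used here came from treated mice, so that no level could be set against an uninjured lung. The Tubb3-/- mice were homozygous for a knock-in of Cre at the start of Tubb3, which encodes a beta-tubulin, so that they carried Cre as well as lacking the gene. The WT mice were littermates without it. The mice were 8 to 11 weeks old and of both sexes, and their strain background was not given in the labels. From Xist and Y-linked genes, replicate 1 of each genotype was male and replicate 2 was female. Each mouse gave a whole-cell sample, depleted of TER-119+ red cells, and a mesenchymal sample, depleted of CD31, CD45, EpCAM and TER-119 cells. The samples were tagged by mouse, and those of all mice were pooled by kind. From the pooled mesenchymal cells, the MCAM+ PDGFRα- and the MCAM- fractions were sorted and mixed 1:1, which gave the mural cell-enriched pool. The sort and not the lung thus set the ratio of cell types. Each library named below is the part of a pool that the tags assigned to 1 mouse. The mice of a pool were thus captured and sequenced together.

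Smooth muscle contracts when calcium, entering through voltage-gated channels or released from internal stores, binds calmodulin and activates myosin light chain kinase. The phosphorylated myosin then pulls on thin filaments of smooth muscle actin, which are tied to dense bodies and to the cell membrane. Myosin phosphatase reverses the step. Most genes of this apparatus are switched on by serum response factor, which binds a short AT-rich motif called the CArG box, together with its coactivator myocardin. In the lung these genes mark the muscle around airways and vessels, pericytes carry part of the set, and Acta2 is also the usual marker of myofibroblasts, the fibroblasts that lay down and contract matrix after injury.

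Cells were sorted into classes by a few genes. After cells with a UMI of Ptprc, Cdh5 or Epcam were dropped, cells with at least 3 Myh11 UMIs and no Higd1b were called smooth muscle (5823 cells). Cells with 2 or more of Higd1b, Cox4i2 and Ndufa4l2 were called pericytes (752 cells). The remaining cells with Pdgfra, a receptor that marks lung fibroblasts, were called Hhip-positive (4730 cells), Cthrc1-positive (1059 cells) or other Pdgfra cells (2127 cells), read in that order. Together these were 14491 of the 30092 cells kept. Since Hhip was read before Cthrc1, 53.98% of the cells with Pdgfra and Cthrc1 lay in the Hhip-positive class. Myh11 is a member of the list, so levels in smooth muscle are set beside those of other classes as a description, without a test. Since smooth muscle was read first, the rule also took cells with 3 or more Myh11 UMIs and no Higd1b out of the other classes: 1536 cells with Pdgfra and 601 that met the pericyte rule. Cells of the 3 Pdgfra classes therefore hold under 3 Myh11 UMIs unless they also had Higd1b, whereas a pericyte with Higd1b could hold any number.

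The labels held only in part. Markers of smooth muscle outside the list summed to 3023 to 3603 CPM (UMIs scaled to a common total for each mouse and class) in the smooth muscle class of the 4 mice and to 433.6 to 1078 CPM in the Pdgfra classes, but to 2941 to 4029 CPM in pericytes. Gucy1a1 (1225 against 188 CPM), Notch3 (570 against 194 CPM) and Mcam (300 against 227 CPM) were higher on average in pericytes than in smooth muscle. The other markers of that list, Mustn1, Nexn, Itga8, Map3k7cl, Mrvi1, Fbxl22 and Rasl12, were lower in pericytes, such as Itga8 (258 against 793 CPM). The pericyte markers summed to 4930 to 8674 CPM in pericytes and to 952 to 1297 CPM in smooth muscle. Of the pericytes, 61.84% had 3 or more Myh11 UMIs. Of the smooth muscle cells, 26.4% had a UMI of Pdgfra, and fibroblast markers summed to 5723 to 8346 CPM there against 12860 to 18450 CPM in the Pdgfra classes. Hhip averaged 316 CPM in smooth muscle and 280 CPM in the class that bears its name, which took 59.75% of all Pdgfra cells. The Hhip-positive class is therefore named by its rule only. The libraries held 41462258 to 95036340 gene UMIs each, and 53 cell barcodes occurred in both pools, 19 of them in libraries of the same mouse. Tubb3, the targeted gene, stood at 5.49 and 3.67 CPM in the mural cell-enriched libraries of the WT mice and at 0.789 and 0.680 CPM in those of the Tubb3-/- mice. In the whole-cell libraries it stood at 1.93 and 0.868 CPM against 0.262 and 0.321 CPM.

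The CArG box was looked for in the 250 bases before the RefSeq start of each gene, in the promoters of GRCm38.p6, since it is the motif the members are known to share. Of the 35 members, 30 had an entry, and 6 of these held a box (20%), against 439 of 27025 genes in all (1.62%). The motif was searched by its name's usual definition, which reads the same on both strands, and no other motif was searched. Actg2, Itpr1, Myh11, Myocd and Tagln had no entry. The sequences of the 6 members with a box are shown 5′ to 3′ on the strand of the gene, with the box in capitals. Those of Myl9, Vcl and Dmd were intergenic, that of Actc1 lay in introns of A530058N18Rik and of a longer Actc1 transcript of the annotation, whose gene span is wider than the RefSeq start, that of Srf in an intron of Gm26904, and that of Myl6 in an exon of a longer Myl6 transcript. Srf, which encodes the factor itself, held 2 boxes within 30 bases.
Actc1, chr2:114052903-114052932, minus strand, box starting 47 bases before the RefSeq start: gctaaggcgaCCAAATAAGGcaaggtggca
Myl6, chr10:128493040-128493069, minus strand, 50 bases before: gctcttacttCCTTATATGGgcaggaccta
Srf, chr17:46556215-46556244, minus strand, 82 and 62 bases before: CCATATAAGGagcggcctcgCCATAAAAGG
Myl9, chr2:156775263-156775352, plus strand, 161 bases before: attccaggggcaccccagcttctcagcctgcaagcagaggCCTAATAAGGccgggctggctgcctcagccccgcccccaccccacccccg
Vcl, chr14:20929148-20929220, plus strand, 227 bases before: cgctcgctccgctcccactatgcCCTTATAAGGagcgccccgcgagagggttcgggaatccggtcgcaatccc
Dmd, chrX:82948732-82948821, plus strand, 98 bases before: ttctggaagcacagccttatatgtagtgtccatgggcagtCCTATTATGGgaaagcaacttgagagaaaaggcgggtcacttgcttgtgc
A box in this window is a description of the letters only. These 6 genes did not move as 1 group below: Actc1 was much higher in smooth muscle than in any other class, whereas Srf had the lowest ratio of smooth muscle to other Pdgfra cells of the list, 1.21.

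The first question was how the contractile genes were spread over the mural and fibroblast classes. UMIs were summed per mouse and class and expressed as CPM of the gene UMIs of that class. The 35 genes together made up 4.82% ± 0.37 of all UMIs in smooth muscle (SD, n = 4 mice), 2.29% ± 0.29 in pericytes, 0.812% ± 0.13 in Cthrc1-positive fibroblasts, 0.708% ± 0.053 in Hhip-positive fibroblasts and 0.669% ± 0.051 in other Pdgfra cells. In immune cells (Ptprc-positive), taken as a rough measure of free RNA, they made up 0.207% ± 0.0093. That sum includes Myl6, at 1106 CPM in the immune cells of the whole-cell libraries. Of the immune cells, 4946 came from the whole-cell libraries and 203 from the mural cell-enriched ones. Smooth muscle lay above other Pdgfra cells for 35 of 35 members with no overlap between the mice, a pattern that 19.5% of the 17520 genes compared showed. The median ratio over the members was 16.5, against 0.993 for all genes. Myh11, which gated smooth muscle, is counted among the 35, so that its place there is no independent result. The rule also limited Myh11 in other Pdgfra cells, so the count is a description.

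**Figure D1:**
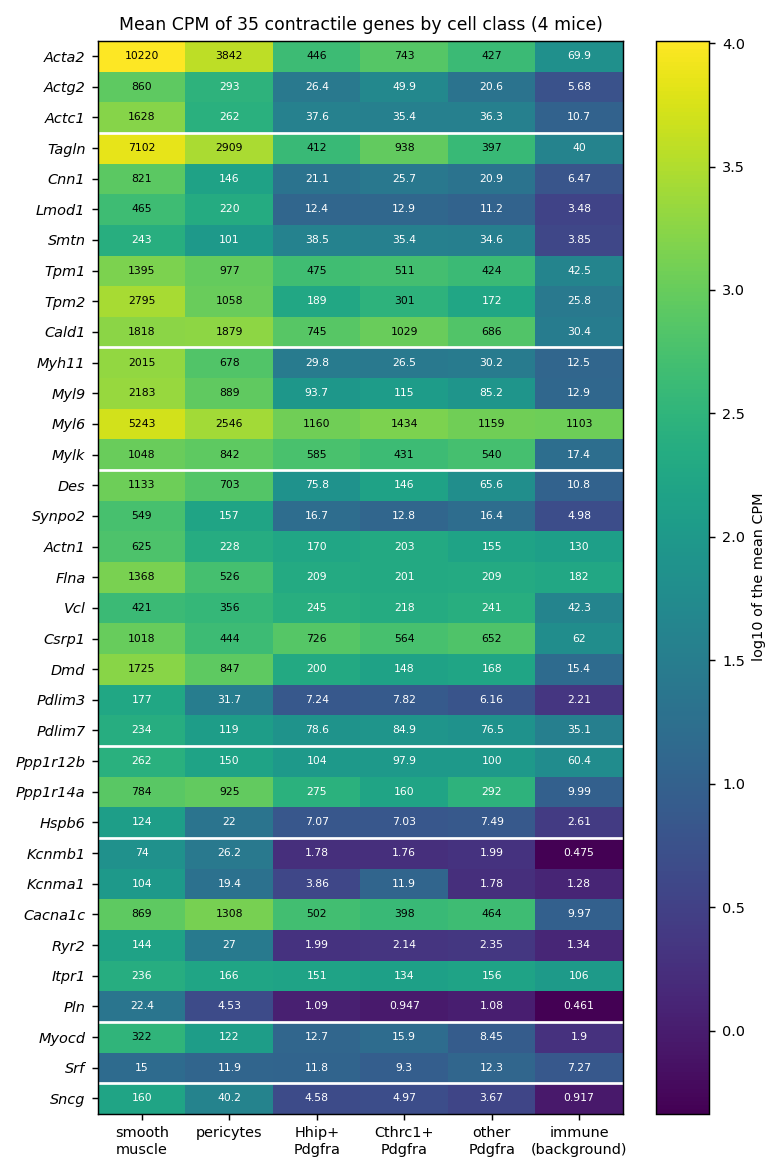
Mean level of the 35 members (rows, ordered by role) in the 5 classes and in immune cells (columns), in CPM averaged over 4 mice, on a log color scale. Bright colors are high levels. The smooth muscle column is the highest for 32 of 35 rows, and Cacna1c, Cald1 and Ppp1r14a are highest in pericytes.

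Among the actins, Acta2 (smooth muscle alpha-actin; mm10 chromosome 19, 34241090 to 34255590, minus strand) stood in smooth muscle at 11590 and 10140 CPM in the 2 WT mice and at 10090 and 9081 CPM in the 2 Tubb3-/- mice. In pericytes its level was 3809, 2629, 4906 and 4023 CPM in the same order. In other Pdgfra cells it was 330.7, 328.9, 534.4 and 514.8 CPM. The 3 ranges did not overlap. Actg2 (gamma smooth muscle actin, best known from the gut) averaged 860 ± 134 CPM in smooth muscle, 293 CPM in pericytes and 20.6 CPM in other Pdgfra cells. Actc1 (cardiac alpha-actin; chromosome 2, 114047282 to 114053548, minus strand) was the member with the highest ratio of smooth muscle to pericytes, 6.21, with 1630, 1914, 1651 and 1315 CPM in smooth muscle and 243.7, 232.9, 365.1 and 207.5 CPM in pericytes. Actc1 thus separated smooth muscle from pericytes more than Acta2 did. The coding sequences of these actins were 82.5% to 84.5% identical. Whether any reads of 1 actin were counted for another was not tested.

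In the thin filament, Tagln (transgelin, an actin-binding protein; chromosome 9, 45929619 to 45936058, minus strand) had the same order of classes as Acta2, with 7102 ± 718 CPM in smooth muscle, 2909 CPM in pericytes and 397 CPM in other Pdgfra cells. Cnn1 (calponin, an inhibitor of the myosin ATPase) averaged 821 CPM in smooth muscle and 146 CPM in pericytes, a ratio of 5.63. The tropomyosin gene Tpm2 had means of 2795, 1058 and 172 CPM in the 3 classes. Cald1 (caldesmon) differed from these: 1901, 1798, 1770 and 1802 CPM in smooth muscle and 1812, 1668, 2062 and 1973 CPM in pericytes overlapped, at a ratio of 0.968. Lmod1 (leiomodin, a nucleator of actin filaments) and Smtn (smoothelin) averaged 465 and 243 CPM in smooth muscle. Both lay in pericytes between the smooth muscle and the fibroblast levels.

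Of the myosin genes, Myh11 (smooth muscle myosin heavy chain; chromosome 16, 14194535 to 14291372, minus strand) was used in the gate of smooth muscle. It stood at 2301, 2149, 1855 and 1754 CPM there and at 698.6, 642.1, 703.2 and 669.6 CPM in pericytes. Its level in the 3 Pdgfra classes averaged 26.5 to 30.2 CPM. Myl9 (regulatory light chain) was at 2183 CPM in smooth muscle, 889 CPM in pericytes and 85.3 CPM in other Pdgfra cells. Myl6 (the essential light chain, also used by non-muscle myosin) was at 5243, 2546 and 1159 CPM, and immune cells also had 1103 CPM of it. Mylk (myosin light chain kinase) spread least of the 4, with 1048, 842 and 539 CPM.

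The channels split into genes of both mural classes and genes of smooth muscle. Cacna1c, the pore of the L-type calcium channel (chromosome 6, 118587240 to 119196418, minus strand), was the only member lower in smooth muscle than in pericytes without overlap between the mice, at 783.7, 1030, 794.9 and 868.4 CPM against 1276, 1520, 1167 and 1269 CPM, a ratio of 0.665. By contrast Kcnma1 and Kcnmb1, the pore and the beta subunit of the calcium-activated potassium channel, averaged 104 and 74.0 CPM in smooth muscle and 19.4 and 26.2 CPM in pericytes. Ryr2, the calcium release channel of the store, averaged 144 CPM in smooth muscle and 27.0 CPM in pericytes. Pln (phospholamban, an inhibitor of the calcium pump of the store) averaged 22.4 and 4.53 CPM, its pericyte level resting on few UMIs. Itpr1, the IP3 receptor, was spread over all classes, at 134 to 236 CPM.

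Anchorage and regulator genes showed both patterns. Des (desmin, the muscle intermediate filament) averaged 1133, 703 and 65.6 CPM in smooth muscle, pericytes and other Pdgfra cells. Synpo2, which bundles actin, averaged 549, 157 and 16.5 CPM, and Dmd (dystrophin) 1725, 847 and 168 CPM. Vcl (vinculin), with 421 CPM in smooth muscle and 356 CPM in pericytes, overlapped between both classes, as did Srf, at 14.97 and 11.9 CPM. Csrp1, an actin-bundling LIM protein, was higher in other Pdgfra cells (652 CPM) than in pericytes (444 CPM). Ppp1r14a (CPI-17, an inhibitor of myosin phosphatase; chromosome 7, 29289308 to 29293801, plus strand) overlapped between smooth muscle (784 CPM) and pericytes (925 CPM), whereas Hspb6, a small heat shock protein, was 5.62 times higher in smooth muscle. Myocd (myocardin) averaged 322 CPM in smooth muscle, 122 CPM in pericytes and 8.45 CPM in other Pdgfra cells. Sncg (gamma-synuclein) had means of 160, 40.2 and 3.67 CPM. In all, 30 members were higher in smooth muscle than in pericytes without overlap between the mice (11.6% of all genes were). Of the others, 1 was lower (15.8% of all genes) and 4 overlapped. The median ratio was 2.46 against 0.940 for all genes. Myh11, which gated smooth muscle, is counted among the 30, so that its place there is no independent result.

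**Figure D2:**
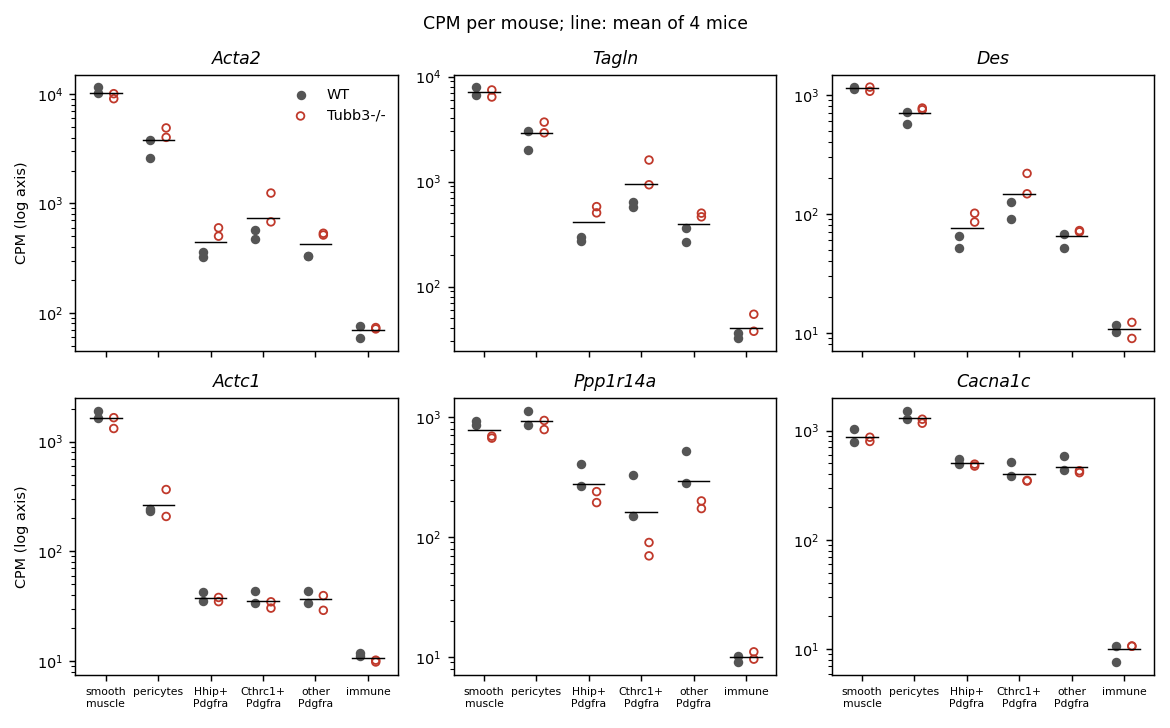
Level of Acta2, Tagln, Des, Actc1, Ppp1r14a and Cacna1c in each class (x axis), in CPM on a log axis; each point is 1 mouse, WT or Tubb3-/-, and the bar is the mean of the 4 mice. Smooth muscle lies above the other classes for Acta2, Tagln, Des and Actc1, overlaps pericytes for Ppp1r14a, and lies below them for Cacna1c.

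Because free RNA of abundant genes enters every droplet, the share of cells with a UMI was read beside that in immune cells, after each cell was thinned to 2000 UMIs. Most immune cells came from the whole-cell libraries, whereas most cells of the 5 classes came from the mural cell-enriched ones. Immune Acta2 was at 56.35 CPM in the former and 338.6 CPM in the latter, and Actc1 at 8.358 and 55.39 CPM. The immune shares below thus understate the background in the mural cell-enriched libraries. Acta2 was found in 95.5% of smooth muscle cells, 83.0% of pericytes, 54.9% of Cthrc1-positive fibroblasts, 45.7% of Hhip-positive fibroblasts and 42.7% of other Pdgfra cells, against 14.3% of immune cells (means over 4 mice). Without thinning, these shares were 99.9%, 96.4%, 96.3%, 93.1%, 87.4% and 41.7%, at median depths of 12035, 10130, 21170, 18728.5, 15906 and 7114 UMIs. Thinning left out 13, 3, 2, 2, 23 and 138 cells. For Actc1 the thinned shares were 66.2% in smooth muscle, 22.3% in pericytes, 7.38% to 8.15% in the 3 Pdgfra classes and 2.82% in immune cells.

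Set against immune cells of the same library type, 11 of the 33 members with a ratio in other Pdgfra cells were more than 2 times higher in both library types: Tagln, Mylk, Smtn, Tpm1, Cald1, Vcl, Ppp1r14a, Cacna1c, Myocd, Csrp1 and Dmd. Another 11 were under 1.5 times in both, namely Actg2, Actc1, Myh11, Cnn1, Myl6, Lmod1, Flna, Kcnmb1, Ryr2, Hspb6 and Pdlim3. In other Pdgfra cells these 11 were not told apart from background. For Myl6 and Flna, which immune cells had at 1103 and 182 CPM, no such reading was made. The rule took cells with 3 or more Myh11 UMIs and no Higd1b out of this class. Low Myh11, and low levels of genes that go with it, were thus partly set by the rule. The mural cell-enriched ratios rest on 203 immune cells, with 6 Kcnmb1 and 5 Ryr2 UMIs. Acta2 was 4.16 times the immune level in the whole-cell libraries and 1.47 times in the mural cell-enriched libraries. In Cthrc1-positive fibroblasts these ratios were 12.5 and 2.76 for Acta2, and 35.3 and 6.56 for Tagln, whereas Actc1, Myh11 and Cnn1 stayed under 1.5. The same rule took cells with 3 or more Myh11 UMIs and no Higd1b out of the Cthrc1-positive class. Low Myh11 there, and low levels of genes that go with it, were also partly set by the rule. In pericytes 29 members were more than 2 times the immune level in both library types, and none was under 1.5 in both. In the whole-cell libraries alone Actn1 (1.06), Itpr1 (1.34) and Srf (1.46) were under 1.5.

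Pericytes were next set against other Pdgfra cells, with both classes taken from each of the 4 mice. As the classes were read, 32 of the 35 members were higher in pericytes in the quasi-likelihood test of edgeR, Benjamini-Hochberg adjusted over 15009 genes (19.5% of all genes were), and Csrp1 was lower (22.7% of all genes). The median log2 fold change of the members was 2.20. These counts are a description, because the rule limited Myh11 in other Pdgfra cells without Higd1b and not in pericytes with Higd1b. Myh11 averaged 678 against 30.2 CPM, Acta2 3842 against 427 CPM and Des 703 against 65.6 CPM.

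With pericytes held to under 3 Myh11 UMIs (287 of the 752 cells), 19 members were higher (8.02% of 15129 genes were) and 2 were lower (9.9% of all genes), with a median log2 fold change of 0.61 against -0.05 for all genes. This limit was set after the data were seen. Myh11, which it uses, is counted among the 19, so that its call is no independent result and only its fold change is given. Lmod1 (2.28 ± 0.14, adjusted p = 9.45e-10), Kcnmb1 (2.25 ± 0.35, adjusted p = 0.000127), Des (2.17 ± 0.19, adjusted p = 1.37e-07), Myocd (2.03 ± 0.44, adjusted p = 0.00266) and Synpo2 (1.92 ± 0.14, adjusted p = 8.57e-09) had the highest fold changes among those called. Sncg (1.88), Ryr2 (1.68), Myl9 (1.51), Myh11 (1.41), Pdlim3 (1.33), Actg2 (1.14), Ppp1r14a (1.03), Acta2 (0.87), Smtn (0.76), Tpm2 (0.71), Tagln (0.65), Dmd (0.61), Cald1 (0.58) and Cacna1c (0.57) were also higher. Csrp1 (-0.90 ± 0.12) and Actn1 (-0.53 ± 0.15) were lower.

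The groups of genes did not hold as wholes under that limit. Of the actins, Actc1 (0.34 ± 0.13, adjusted p = 0.0678) was no longer called. Cnn1 (0.46) and Tpm1 (-0.03) of the thin filament, and Myl6 (0.17) and Mylk (-0.12) of the myosin genes, were not called either. Neither were Flna, Vcl, Pdlim7, Ppp1r12b, Hspb6, Kcnma1 and Pln, which had been called without the limit, nor Itpr1 and Srf, which had not. The members' share of UMIs in pericytes dropped from 2.29% to 0.957% with the limit, beside 0.669% in other Pdgfra cells. How many of the pericytes over the limit were muscle cells or doublets was not tested.

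Within the class called smooth muscle, levels of the other members differed between cells with and without Actc1. Cells with at least 2 Actc1 UMIs (4519 cells) were compared with cells in which none was found (697 cells), and Actc1 itself was left out. All 34 other members were higher in the Actc1-positive cells in edgeR's test (14.5% of 13638 genes were), with a median log2 fold change of 1.56. Myh11, which gated the class, is counted among the 34, so that its call is no independent result. With at least 5 Myh11 UMIs, 4285 Actc1-positive and 411 Actc1-negative cells remained, and 31 members were called, all higher. Acta2 was at 13370, 12270, 12420 and 11170 CPM in the Actc1-positive cells of the 2 WT and the 2 Tubb3-/- mice and at 4979, 2004, 4024 and 3451 CPM in the Actc1-negative cells. Every mouse showed the gap, with a log2 fold change of 1.92 ± 0.18 (adjusted p = 4.38e-05).

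The 2 steepest members were regulators. Pln was at 33.13, 24.87, 29.4 and 23.97 CPM in the Actc1-positive cells and at 6.906, 5.26, 5.717 and 5.284 CPM in the Actc1-negative cells, with no overlap and a log2 fold change of 2.35 ± 0.12 (adjusted p = 4.66e-06). Hspb6 followed, at 146.2 to 157.5 CPM against 25.18 to 55.68 CPM, a log2 fold change of 2.25 ± 0.16. Next came Cnn1 (2.06), Myl9 (2.05), Acta2, Ryr2 (1.90), Tpm2 (1.88), Myh11 (1.83), Ppp1r14a (1.79) and Kcnmb1 (1.77). At the other end, Cacna1c overlapped between both groups of cells, at 815.6 to 1056 CPM against 679 to 1018 CPM, and its log2 fold change was 0.30 ± 0.07 (adjusted p = 0.00757). Kcnma1 also overlapped, with 0.32 ± 0.11 (adjusted p = 0.0478), a call lost in 11 of 15 alternatives, with a change of sign in 3. Myocd and Srf, the transcriptional regulators, were higher by 0.93 and 0.68.

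**Figure D3:**
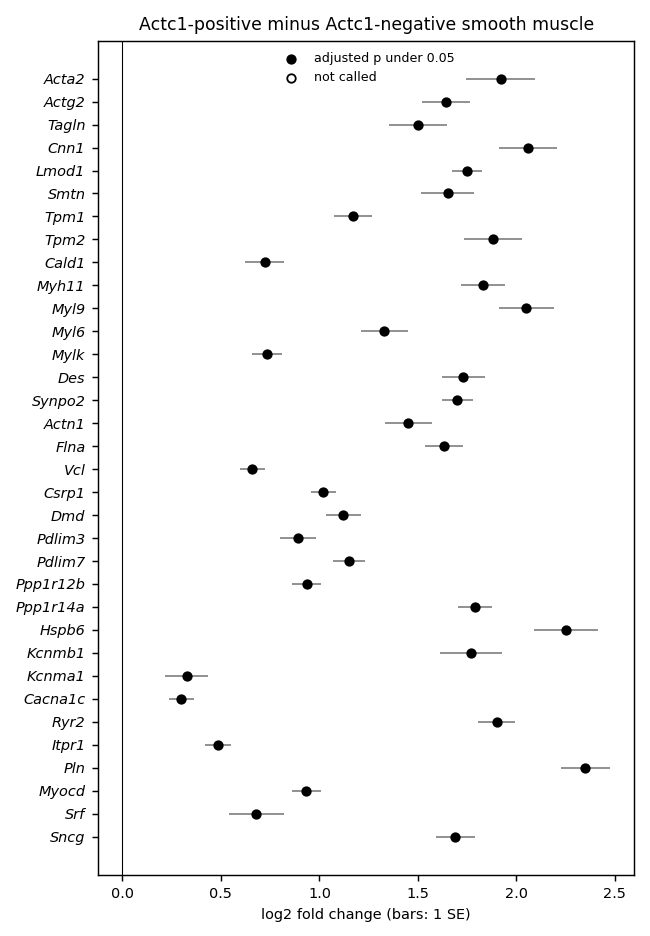
Log2 fold change of 34 members between Actc1-positive and Actc1-negative smooth muscle cells (x axis), with bars of 1 SE, from 4 mice; filled points have an adjusted p under 0.05. All points are filled and lie right of 0, from 0.30 for Cacna1c to 2.35 for Pln.

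The Actc1-negative cells differed from the Actc1-positive cells in more than the members. Smooth muscle markers outside the list summed to 1520 to 1867 CPM in Actc1-negative cells, against 3581 to 4068 CPM in Actc1-positive cells. Fibroblast markers summed to 9666 to 14330 CPM in Actc1-negative cells, against 4419 to 6285 CPM, and overlapped the Pdgfra classes (12860 to 18450 CPM). Markers of peribronchial Hhip cells summed to 1749 to 3138 CPM, against 564 to 882 CPM, and to 354.7 to 538.9 CPM in the Hhip-positive class. What share of the Actc1-negative cells was muscle was not tested. Median depth of the Actc1-negative cells was 11068 to 15416.5 UMIs per cell in the 4 mice, against 10500.5 to 12939.5. It was higher than that of the Actc1-positive cells in 3 mice and slightly lower in WT 1 (11068 against 11118). When cells that met more than 1 class rule were left out, 29 members were higher and Kcnma1 was lower, with a log2 fold change of -0.39 ± 0.12 (adjusted p = 0.0411). Cacna1c, Itpr1, Srf and Pdlim3 were then not called.

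The contractile set was then compared between fibroblast classes. Cthrc1 marks the collagen-rich fibroblasts of fibrotic lung, and the question was which part of the muscle set they carried. Cells with 3 or more Myh11 UMIs and no Higd1b had been taken out of all 3 Pdgfra classes. The answer thus covers only the cells left by that rule. Against other Pdgfra cells, 11 members were higher (11.2% of 15009 genes were) and 2 were lower (8.83% of all genes), with a median log2 fold change of 0.12 over the members and -0.01 over all genes. The genes that rose were Acta2, Actg2, Tagln, Tpm1, Tpm2, Cald1, Myl9, Myl6, Des, Actn1 and Kcnma1. They came from the actins (2 of 3), the other thin-filament genes (4 of 7), myosin and its light chains (2 of 4), anchorage (2 of 9) and the channels (1 of 6). None of the phosphatase regulators or transcription factors rose.

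Tagln stood at 641.1, 577.3, 1603 and 931.8 CPM in the Cthrc1-positive fibroblasts of the 2 WT and 2 Tubb3-/- mice and at 265.7, 360.3, 500 and 461.2 CPM in their other Pdgfra cells. The classes did not overlap, and the log2 fold change was 1.24 ± 0.20 (adjusted p = 0.000369). Des (chromosome 1, 75360329 to 75368579, plus strand) had 126.5, 90.33, 218.8 and 147.4 CPM against 51.21, 68.27, 70.54 and 72.33 CPM, again with no overlap, at 1.20 ± 0.17 (adjusted p = 0.000104). Cald1 had 972.1, 816.1, 1280 and 1049 CPM against 619.1, 635.3, 761 and 730.7 CPM, at 0.63 ± 0.09 (adjusted p = 5.81e-05). For these 3 genes every mouse moved in the same direction.

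The actins rose less evenly. Acta2 was at 568.8, 478.1, 1246 and 679.2 CPM against 330.7, 328.9, 534.4 and 514.8 CPM, higher in every mouse but with overlap across mice, at 0.82 ± 0.18 (adjusted p = 0.004). The first Tubb3-/- mouse stood far above the other 3. Actg2 (chromosome 6, 83512905 to 83536265, minus strand) was at 34.09, 24.09, 97.88 and 43.64 CPM against 18.21, 24.59, 19.41 and 20.32 CPM, higher in 3 of 4 mice, at 1.30 ± 0.25 (adjusted p = 0.00134). Since Actg2 in other Pdgfra cells was at the immune level, its baseline there was not told apart from background. Actc1, at 35.4 and 36.3 CPM on average, was below the immune level in both classes.

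Among the smaller rises, Tpm2 had a log2 fold change of 0.86 ± 0.16 (adjusted p = 0.001), Myl9 0.50 ± 0.12 (adjusted p = 0.00766), Actn1 (alpha-actinin) 0.46 ± 0.12 (adjusted p = 0.0148), Myl6 0.36 ± 0.10 (adjusted p = 0.0129) and Tpm1 0.32 ± 0.11 (adjusted p = 0.0444). Kcnma1 had the highest fold change, 2.74 ± 0.47 (adjusted p = 0.000577), on low levels of 18.82, 7.628, 11.31 and 9.939 CPM against 1.774, 1.46, 2.501 and 1.388 CPM. The WT 1 value owed much to 1 library, the whole-cell library of that mouse, where 30 Cthrc1-positive cells held 44 Kcnma1 UMIs. In the mural cell-enriched libraries alone the log2 fold change was 2.39 (adjusted p = 0.00555).

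The 2 members that fell were Ppp1r14a and Synpo2. Ppp1r14a stood at 150.3, 329.6, 69.55 and 89.88 CPM in Cthrc1-positive fibroblasts and at 281.7, 516.5, 172.3 and 199.4 CPM in other Pdgfra cells. It was lower in every mouse, at a log2 fold change of -0.92 ± 0.21 (adjusted p = 0.00421). Synpo2, at -0.36 ± 0.12 (adjusted p = 0.0397), had 12.8 against 16.5 CPM on average. Its call was lost in 9 of 16 alternatives. In Cthrc1-positive fibroblasts Synpo2 was at 0.761 and 0.84 times the immune level in the whole-cell and mural cell-enriched libraries. It was thus not told apart from background there. Mylk (-0.27, adjusted p = 0.0737), Cacna1c (-0.17, adjusted p = 0.0535) and Myocd (0.97 ± 0.36, adjusted p = 0.0672) did not pass.

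Against Hhip-positive fibroblasts, Cthrc1-positive fibroblasts had 9 members higher (11.2% of all genes) and 5 lower (8.47% of all genes), with a median log2 fold change of 0.14. Higher were Kcnma1 (1.59), Tagln (1.23 ± 0.20, adjusted p = 0.000304), Des (1.03), Actg2 (0.98), Acta2 (0.77), Tpm2 (0.72), Cald1 (0.53), Myl9 (0.37) and Myl6 (0.37). Lower were Ppp1r14a (-0.89), Dmd (-0.40), Synpo2 (-0.39), Mylk (-0.38) and Cacna1c (-0.29). The lower set rested on both Tubb3-/- mice: without the first, 6 members were higher and 1 lower, and without the second 7 were higher and 0 lower. This comparison and the one before it share the Cthrc1-positive sums.

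Hhip-positive fibroblasts differed from other Pdgfra cells in none of the 35 members by edgeR's test (1.5% of all genes were called). At an unadjusted p under 0.05 stood 2 members (10.1% of all genes), and DESeq2 called none (2.02% of all genes). The members with the largest differences and a mean of at least 10 CPM were Myocd (0.61 ± 0.32, adjusted p = 0.566), Actg2 (0.31 ± 0.24, adjusted p = 0.808) and Dmd (0.24 ± 0.10, adjusted p = 0.343). The class was wide, since 1 UMI of Hhip was enough to enter it.

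The study's own contrast was that of the genotypes. With 2 mice in each group, no member passed the threshold in edgeR's quasi-likelihood test in any of the 5 classes, and for several members the values lay on opposite sides in smooth muscle and in the other classes. In smooth muscle the share of all genes called was 1.01%, in pericytes 0%, in Hhip-positive fibroblasts 0.0193%, in Cthrc1-positive fibroblasts 0.0642% and in other Pdgfra cells 0.00736%. At an unadjusted p under 0.05 stood 5, 1, 14, 12 and 11 members in the same order, of 35, 35, 35, 34 and 34 tested. DESeq2 called 1, 0, 7, 4 and 5 members, and 2.48%, 0.0269%, 3.6%, 2.21% and 1.89% of all genes. With the replicate number as a block, which coincides with sex and gives only 2 pairs, edgeR called 11 members in smooth muscle (11.8% of all genes), 0 in pericytes (0.476%), 15 in Hhip-positive (10% of all genes), 12 in Cthrc1-positive (5.93%) and 5 in other Pdgfra cells (1.59%). The labels do not say that the number marks a pair. Over all genes tested without the block, 16.1%, 6.14%, 17.5%, 15.1% and 14.3% had an unadjusted p under 0.05.

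In smooth muscle, the median log2 fold change of the members was -0.14 (all genes 0.01). Both Tubb3-/- mice lay below both WT mice for 15 members, a pattern of 21.3% of all genes, and above them for 1 member (23.4% of all genes), Sncg. Myh11, at 2301 and 2149 CPM in the WT mice and 1855 and 1754 CPM in the Tubb3-/- mice, had a log2 fold change of -0.30 ± 0.14 (adjusted p = 0.345). Ppp1r14a, at 862.8 and 918.2 CPM against 665.2 and 690.5 CPM, had -0.39 ± 0.10 (adjusted p = 0.136). Myocd, at 356.2 and 353.2 CPM against 299.2 and 279.1 CPM, had -0.29 ± 0.10 (adjusted p = 0.241). None of the 3 overlapped between genotypes and none passed the test. Myh11, counted among the 15, gated this class by a fixed count of at least 3 UMIs, so its value is no independent result. Median depth of these cells was 11174.5 and 10570 UMIs for WT, against 13407.5 and 12708 UMIs for Tubb3-/-. A fixed count is a smaller share of the UMIs of a deeper cell. The part of the gate in the genotype values of Myh11 and the other members was not tested. Markers of smooth muscle outside the list stood at 3461 and 3603 CPM against 3023 and 3205 CPM (7 of 10 lower in both Tubb3-/- mice), and fibroblast markers in this class at 5769 and 5723 CPM against 8104 and 8346 CPM. The part of what these markers show in the members' values was not tested.

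In pericytes, the median was 0.22 (all genes -0.01), with 13 members above without overlap (18.5% of all genes) and 3 below (18.6% of all genes). Acta2 was at 3809 and 2629 CPM in the WT mice and at 4906 and 4023 CPM in the Tubb3-/- mice, with a log2 fold change of 0.48 ± 0.29 (adjusted p = 0.798). Actn1 had 0.41 ± 0.22 (adjusted p = 0.796). Kcnma1, at 28.09 and 27.28 CPM against 10.21 and 12.03 CPM, had -1.30 ± 0.23 (adjusted p = 0.793). For Acta2 the WT mice lay nearly as far from each other as the genotype means, 3219 and 4464 CPM, did.

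In Hhip-positive fibroblasts, 16 members lay above without overlap (25.2% of all genes) and 5 below (22.1% of all genes), with a median of 0.13 (all genes 0.01). Tagln, at 269.7 and 296.4 CPM in the WT mice and 576.8 and 503.1 CPM in the Tubb3-/- mice, had a log2 fold change of 0.93 ± 0.11 (adjusted p = 0.0905). Acta2, at 326.2 and 358 CPM against 599.1 and 502.6 CPM, had 0.68 ± 0.12 (adjusted p = 0.12). Myocd, at 9.612 and 7.663 CPM against 15.38 and 18.22 CPM, had 0.94 ± 0.18 (adjusted p = 0.126). Both Tubb3-/- mice stood above both WT mice for all 3 genes. For Tagln the log2 fold change was 0.91 in the mural cell-enriched libraries alone (adjusted p = 0.083) and 1.25 in the whole-cell libraries alone (adjusted p = 0.0931).

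In Cthrc1-positive fibroblasts, 13 members lay above (20.5% of all genes) and 7 below (27.3% of all genes), with a median of 0.18 (all genes 0.00). Actg2, at 34.09 and 24.09 CPM in the WT mice and 97.88 and 43.64 CPM in the Tubb3-/- mice, had 1.32 ± 0.42 (adjusted p = 0.235). Tagln, at 641.1 and 577.3 CPM against 1603 and 931.8 CPM, had 1.11 ± 0.28 (adjusted p = 0.172). Ppp1r14a went the other way, at 150.3 and 329.6 CPM against 69.55 and 89.88 CPM, with -1.54 ± 0.34 (adjusted p = 0.142). The first Tubb3-/- mouse was the highest for both Actg2 and Tagln, and the WT mice differed by more than 2 times for Ppp1r14a.

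In other Pdgfra cells, 11 members lay above (23.7% of all genes) and 7 below (21.1% of all genes), with a median of 0.10 (all genes 0.01). Acta2, at 330.7 and 328.9 CPM in the WT mice and 534.4 and 514.8 CPM in the Tubb3-/- mice, had 0.66 ± 0.12 (adjusted p = 0.126). Actn1, at 118.3 and 121.5 CPM against 182.5 and 197.5 CPM, had 0.66 ± 0.10 (adjusted p = 0.115). Ppp1r14a, at 281.7 and 516.5 CPM against 172.3 and 199.4 CPM, had -1.10 ± 0.25 (adjusted p = 0.166).

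Read gene by gene, 9 members lay above without overlap in all 3 Pdgfra classes of the Tubb3-/- mice: Acta2, Tagln, Tpm1, Tpm2, Cald1, Myl9, Myl6, Des and Actn1. These were picked after their values were seen, none passed the test in any class, and the 3 classes come from the same mice. Ppp1r14a lay below without overlap in smooth muscle and in all 3 Pdgfra classes. Itpr1 lay below without overlap in all 5 classes, at log2 fold changes of -0.24, -0.24, -0.36, -0.59 and -0.45 in smooth muscle, pericytes, Hhip-positive, Cthrc1-positive and other Pdgfra cells, none of them called. Itpr1 overlaps another gene on its strand. How many of all genes held such joint patterns was not counted, so the 9 members, Ppp1r14a and Itpr1 are a description only. Within single Pdgfra classes, 20.5% to 25.2% of all genes lay above without overlap.

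Other quantities differed between the genotypes in every class. Genes of dissociation stress, such as Fos and Jun, summed to 13990 and 13530 CPM in smooth muscle of the WT mice and to 10630 and 10340 CPM in that of the Tubb3-/- mice. In Hhip-positive fibroblasts they summed to 11530 and 11130 CPM against 8167 and 7784 CPM. Fibrosis markers in the Cthrc1-positive class summed to 8799 and 4671 CPM in the WT mice and to 16750 and 14260 CPM in the Tubb3-/- mice, in which that class also had more cells (431 and 306 against 179 and 143). Their part in the members' values was not tested.

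**Figure D4:**
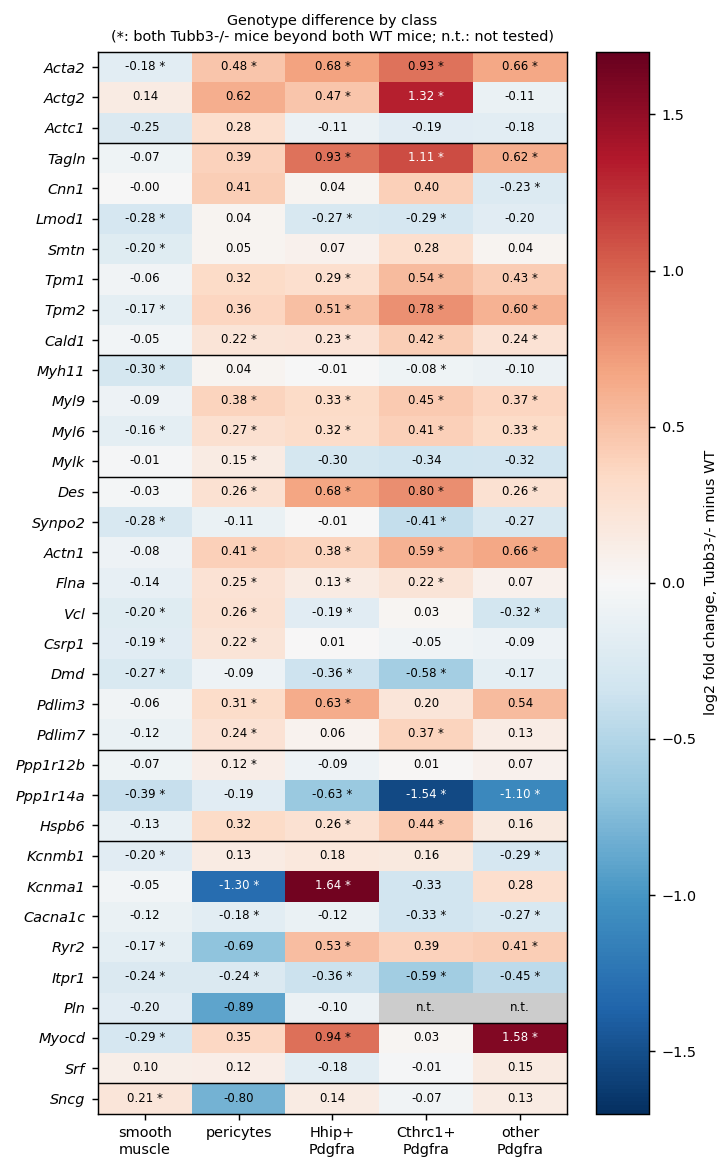
Log2 fold change of the 35 members (rows) between Tubb3-/- and WT in the 5 classes (columns), as color and number; an asterisk marks genes for which both Tubb3-/- mice lay beyond both WT mice. Acta2, Tagln and Des are positive in the pericyte and Pdgfra columns and between -0.18 and -0.03 in smooth muscle; no value passed the adjusted threshold, and Pln was not tested in Cthrc1-positive and other Pdgfra cells (n.t.).

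Whether the genotype difference itself differed between classes was tested as an interaction. Between Cthrc1-positive fibroblasts and smooth muscle, 1 member passed (0.232% of 15549 genes did), with 17 members at an unadjusted p under 0.05 (11% of all genes) and a median of 0.43 (all genes 0.02). That was Myl6 (chromosome 10, 128490860 to 128494145, minus strand), at 1282 and 1225 CPM in WT and 1723 and 1507 CPM in Tubb3-/- Cthrc1-positive fibroblasts, and at 5733 and 5338 CPM in WT and 5087 and 4814 CPM in Tubb3-/- smooth muscle. The genotypes did not overlap in either class and lay in opposite order, with an interaction of 0.63 ± 0.11 on the log2 scale (adjusted p = 0.0454). The call was lost without either Tubb3-/- mouse. Tagln (1.21 ± 0.27, adjusted p = 0.0905), Acta2 (1.13 ± 0.24, adjusted p = 0.0712) and Actg2 (1.20 ± 0.34, adjusted p = 0.195) did not pass.

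Between pericytes and smooth muscle, edgeR's interaction test called no member (0.0193% of all genes were called). At an unadjusted p under 0.05 stood 15 members (8.82% of all genes), with a median over the members of 0.38. DESeq2 called 3 members (0.289% of all genes). Kcnma1 (-1.24 ± 0.31, adjusted p = 0.275), Acta2 (0.70 ± 0.24, adjusted p = 0.452) and Actn1 (0.53 ± 0.15, adjusted p = 0.38) had the largest values by the naming rule. Acta2 lay lower in smooth muscle and higher in pericytes of the Tubb3-/- mice, without passing the test of the difference.

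Another 55 genes of contraction and its control are not on the list, such as the non-muscle actins and myosins, receptors and pumps. Of these, 33 were higher (19.5% of all genes) and 12 lower (22.7% of all genes) in pericytes than in other Pdgfra cells. Their median log2 fold change was 0.50. The full pericyte class was used here, in which 61.84% of cells had 3 or more Myh11 UMIs. Trpc6, a calcium-permeable channel (7.19), and Agtr1a, the angiotensin receptor (6.19), led those higher. The muscarinic receptor gene Chrm3 was the lowest (-3.97). In Cthrc1-positive fibroblasts against other Pdgfra cells, 9 were higher (11.2% of all genes) and 7 lower (8.83% of all genes), with a median of -0.05. Higher were Trpc6 (1.44), Pde3a (0.86), the non-muscle genes Myh9 (0.48), Myl12a (0.35), Tpm4 (0.27) and Actg1 (0.24), and Filip1l, Ilk and Calm2. Among those lower were the receptors Chrm3 (-1.23), Adra1a (-1.20) and Ednra (-0.61). Between genotypes none of these genes was called in any class by edgeR's test.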

How the data were processed

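Whole-lung and mural cell-enriched cell suspensions of 4 mice were tagged, pooled by kind and sequenced by the authors. The deposited counts were UMIs per gene and cell, assigned with Cell Ranger 7.1.0 on mm10 with an added Cre gene per the labels, and were not normalized. Whether counting used strand, and the annotation release, were not given in the sources used here, and 10 members overlap another gene on the same strand. Of 32121 cells, those with 200 to 7500 genes and at most 15% mitochondrial UMIs were kept (30860). Doublets were scored with Scrublet in scanpy 1.11.5. Its automatic threshold did not work, and a score of 0.25, chosen after the data were seen, removed 768 cells. Classes were read in the order smooth muscle, pericytes, Hhip-positive, Cthrc1-positive and other Pdgfra cells.

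UMIs were summed per mouse and class over both libraries, and CPM was computed from these sums. Tests used edgeR 4.0.16 (quasi-likelihood, TMM, filterByExpr) in R 4.3.3, two-sided, at a threshold of 0.05 on p-values adjusted by Benjamini-Hochberg across every gene tested. Genotypes were compared within a class over 2 against 2 mice, and classes with the mouse as a block. Alternatives were DESeq2 1.42.0, other normalization and filters, each mouse left out, a replicate block, other doublet and mitochondrial limits, each library alone and other gates. Code was tested on simulated counts. The members and the lists were chosen with earlier results of these data known. All members are accounted for by role. Full statistics went to those called (at most the 10 with the largest change and a mean of at least 10 CPM), or, with fewer than 3 called, to the 3 with the largest change among those with that mean and, for genotypes, no overlap. Promoters came from RefSeq (GRCm38.p6) and positions from GENCODE vM21.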

Additional observations from a re-analysis of the deposited data

Results flagged for a closer look

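Of 158 members' levels in a class with at least 200 UMIs, 6 had 1 of the 4 mice far from the other 3, measured by the gap to the nearest mouse over the whole range. Chance flags about 1 in 20 groups. Cnn1 in pericytes was 212.2 CPM in the first Tubb3-/- mouse against 117.8 to 133.7 CPM in the others, and in Cthrc1-positive fibroblasts the same mouse had 36.18 CPM against 21.17 to 22.91 CPM. Cacna1c in other Pdgfra cells was 581.4 CPM in the second WT mouse against 412 to 433.2 CPM. In that mouse Ryr2 in pericytes was 48 CPM against 18.93 to 21.75 CPM, and Srf in Hhip-positive fibroblasts was 14.24 CPM against 10.81 to 11.05 CPM. Hspb6 in other Pdgfra cells was 9.215 CPM in the second Tubb3-/- mouse against 6.704 to 7.074 CPM.

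The genotype difference of Myl6 differed between Cthrc1-positive fibroblasts and smooth muscle by 0.63 on the log2 scale, the 1 member that passed the interaction test. The part of fibroblast RNA, which was higher in the smooth muscle class of the Tubb3-/- mice, was not tested.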

How the results depend on the processing

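Of 1988 values of members that were named or called, under alternative settings, 121 lost the call, 78 gained it and 12 changed sign. The other 1777 were counted as unchanged. These kept their direction and side of the threshold, or were uncalled in the main test and changed sign by a shift under 1 SE. Of 186 counts of called members, 143 stayed within 1.5 times the main count, and of 33 shares of UMIs, 25 moved by less than the spread between mice. The cause of the other moves was not tested.

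For the genotypes, 0 members were called in each class in the main test. DESeq2 called 1 member in smooth muscle (2.48% of all genes), 7 in Hhip-positive (3.6%), 4 in Cthrc1-positive (2.21%) and 5 in other Pdgfra cells (1.89%). Without a filter on low counts, edgeR called 1, 1, 1, 11 and 8 in smooth muscle, pericytes, Hhip-positive, Cthrc1-positive and other Pdgfra cells. Of all genes it then called 6.35%, 1.02%, 0.636%, 5.21% and 5.59%. With gates on thinned cells it called 2 members in the Cthrc1-positive class. The replicate numbers, which coincide with sex, gave only 2 pairs (correlations of deviations 0.183 to 0.306). With them as a replicate block, 11 members were called in smooth muscle (1 higher, 10 lower; of all genes 5.64% and 6.2%), 15 in Hhip-positive (11 higher, 4 lower; 3.64% and 6.37%), 12 in Cthrc1-positive (9 higher, 3 lower; 1.86% and 4.07%) and 5 in other Pdgfra cells (4 higher, 1 lower; 0.537% and 1.05%), and 0 in pericytes. Leaving out 1 mouse gave 0 to 0 members in smooth muscle, 0 to 9 in pericytes, 0 to 5 in Hhip-positive, 0 to 2 in Cthrc1-positive and 0 to 7 in other Pdgfra cells. The lone mouse left in a group is then assumed to vary like the others. The calls came without WT 1 (9, 5, 2 and 7 in the last 4 classes) and without WT 2 (2 in pericytes, 5 in Hhip-positive and 6 in other Pdgfra cells).

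Cthrc1-positive against other Pdgfra cells gave 13 members in the main test, 6 with no replicate block (no mouse term), 7 from the whole-cell library alone, 21 with at least 2 Cthrc1 UMIs, and 8 (without Tubb3-/- 1) to 16 without 1 mouse. Actg2, Tagln, Des, Tpm2, Cald1 and Kcnma1 were called under every one of 16 alternatives. Acta2 was lost without the mouse term and in the whole-cell library alone (1.44, adjusted p = 0.0866 by edgeR), and Ppp1r14a without the mouse term. Cthrc1-positive against Hhip-positive gave 14 members, 4 with no replicate block, 8 from the whole-cell library alone, and 7 (without Tubb3-/- 1 or Tubb3-/- 2) to 14 without 1 mouse. Pericytes against other Pdgfra cells gave 32 to 33 without 1 mouse and 21 with pericytes under 3 Myh11 UMIs. Under that limit Mylk (-0.1207), Tpm1 (-0.0271), Actn1 (-0.5254), Vcl (-0.1035) and Ppp1r12b (-0.235) changed sign, and in the whole-cell library alone Actn1 (-0.4305) and Pln (-3.772) did. The Actc1 comparison gave 32 to 34 without 1 mouse, and Hhip-positive against other Pdgfra cells 0 to 0. Kcnma1 in the Actc1 comparison turned to -0.3868 without cells meeting more than 1 rule, -0.1856 with gates on thinned cells and -0.254 with at least 5 Myh11 UMIs.

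The interaction of Cthrc1-positive fibroblasts and smooth muscle called 10 members with DESeq2, 12 without a filter, 3 with gates on thinned cells, 0 in the whole-cell library alone, 0 with at least 2 Cthrc1 UMIs, 0 when Cthrc1 was read before Hhip, and 0 (without Tubb3-/- 1 or 2) to 3 (without WT 1) without 1 mouse. That of pericytes called 3 with DESeq2, 6 without a filter, and 0 to 5 without 1 mouse (5 without WT 1, 1 without WT 2). In these 2 interactions DESeq2 called 1.32% (Cthrc1-positive) and 0.289% (pericytes) of all genes, and edgeR without a filter 1.46% and 0.591%. Actg2 in Hhip-positive against other Pdgfra cells turned to -0.04562 without cells meeting more than 1 rule and to -0.04953 with Cthrc1 read before Hhip. The members' share of UMIs moved in smooth muscle to 5.963% without ambiguous cells, 5.98% with gates on thinned cells and 5.529% in the whole-cell library alone. In pericytes it moved to 2.702% without ambiguous cells, 1.737% in the whole-cell library alone and 0.9567% with under 3 Myh11 UMIs. In the whole-cell library alone it was 0.6134% in Hhip-positive and 0.5803% in other Pdgfra cells. Reading Cthrc1 before Hhip and the limit of 3 Myh11 UMIs were added after the data were seen.

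Depth limits the low members: Pln, Kcnmb1, Ryr2, Kcnma1 and Sncg averaged under 5 CPM in other Pdgfra cells.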
